A study of Mus musculus with 6 samples.

Results

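The genes described here encode collagen chains, laminin chains, 6 further matrix proteins and 10 enzymes and chaperones that modify or cross-link collagen. They were chosen by symbol among the protein-coding genes of the count table, as all but 1 of the symbols of the collagen chain pattern, all laminin alpha, beta and gamma chain symbols, and 16 genes named one by one (Fbln1, Fbln2, Fbln5, Fn1, Fbn1, Hspg2, P4ha1, P4ha2, P4ha3, Plod1, Plod2, Plod3, Serpinh1, Lox, Loxl1 and Loxl2). This gave 70 genes of the 54532 rows of the table, of which 43 are collagen chains and 11 are laminin chains. Expression was measured by bulk RNA-seq of total RNA in 6 libraries labelled NIT-1, a mouse line derived from an insulinoma of a transgenic NOD mouse and used to study pancreatic beta cells. The 3 EVs libraries come from cells kept for 16 h with hucMSC-EVs, vesicles shed by mesenchymal stem cells of human umbilical cord, and then for 8 h with Tm. The 3 ERS libraries come from cells kept for 16 h with PBS and then for 8 h with Tm. Tm is taken here as tunicamycin, which blocks N-linked glycosylation and causes endoplasmic reticulum (ER) stress. One label calls the ERS samples untreated, whereas their titles and the series design give them Tm. Libraries of cells that never met Tm were not analysed here, and every fold change below sets vesicles against PBS with Tm on both sides. Whether samples of a group are separate cultures is not stated in the labels, and p-values therefore reflect no more than the scatter of these samples, possibly technical.

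Collagens are secreted proteins of 3 chains wound into a helix. In the ER, prolyl 4-hydroxylases and lysyl hydroxylases modify the chains, HSP47 (Serpinh1) holds the folded helix, and large export carriers take procollagen to the Golgi, after which proteases trim it and lysyl oxidases cross-link it. Laminins are trimers of an alpha, a beta and a gamma chain. With collagen IV and perlecan they build the basement membrane, the thin sheet under epithelial cells and around vessels, on which islet cells rest. Laminins carry many N-linked glycans, and all these proteins load the ER with large clients. The comparison asks how transcripts of these proteins and of their helpers differed between cells given vesicles and cells given PBS before Tm.

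The libraries held 28654248 to 32550268 counts, and 16844 genes had enough counts to be tested with edgeR's quasi-likelihood test. A gene was called higher or lower at a Benjamini-Hochberg adjusted p under 0.05. CPM is the count scaled to library size, and fold changes are EVs against ERS. Of the 70 genes 50 were tested. The labelled cell type was not borne out by its defining markers. Of 10 beta-cell genes, Ins2, Iapp, Pdx1, Nkx6-1, G6pc2, Ucn3 and Slc30a8 had 0 counts in all libraries, and the 10 together summed to 0.0977 to 0.248 CPM in ERS and 0.195 to 0.558 CPM in EVs. A count of 0 allows up to 3 counts in a library, or at most 0.105 CPM, which covers counting error only. Of the 10 fibroblast and mesenchymal markers, Acta2 and Fap were at 0, and the list summed to 45.3 to 46.8 CPM in ERS and 46.9 to 48.9 in EVs. Most of that sum was Twist1, which was 1.28-fold higher, at 26.6 ± 1.7 CPM in ERS and 34.0 ± 1.2 in EVs (adjusted p by edgeR = 3.11e-04). Pdgfrb was 2.91-fold lower in EVs, at 6.64 ± 0.21 CPM in ERS and 2.28 ± 0.42 in EVs (adjusted p by edgeR = 9.10e-08). Both were named after their values were seen. Postn, Pdgfra and Prrx1 did not pass, and Lum had at most 3 counts in any library. The 7 endothelial markers, with Kdr, Tie1 and Emcn at 0, summed to 37.6 to 38.8 CPM in ERS and 37.4 to 38.5 in EVs. Most of that sum was Pecam1, which was lower in EVs, at 28.5 ± 0.8 CPM in ERS and 24.5 ± 1.0 in EVs (adjusted p by edgeR = 0.0202). The 7 ductal and epithelial markers, with Krt19 at 0, summed to 61.5 to 63.3 CPM in ERS and 80.9 to 83.8 in EVs. Nearly all of that sum was Sox9, at 62.4 ± 1.0 and 80.7 ± 1.5 CPM (adjusted p by edgeR = 1.16e-06), whereas Krt8 and Krt18 had at most 3 counts in any library. The 6 acinar markers, with Cpa1, Ptf1a and Amy2b at 0, summed to 23.8 to 30.0 CPM in ERS and 29.7 to 34.1 in EVs. Nearly all of it was Cela1, at 27.1 ± 3.2 CPM in ERS and 32.1 ± 2.5 in EVs (adjusted p by edgeR = 0.0200), and Prss1 had at most 3 counts in any library. The 6 immune markers summed to 4.46 to 6.05 CPM in ERS and 5.82 to 8.10 in EVs. None was at 0 in all libraries, but Adgre1 had at most 3 counts in any library. Most of the immune sum was Cd68, at 3.84 ± 0.97 CPM in ERS and 5.36 ± 1.13 in EVs (adjusted p by edgeR = 0.0482). For 5 muscle markers, with Myog at 0, the sums were 4.27 to 5.24 CPM in ERS and 5.10 to 7.38 in EVs. The part of other cell types in the results was not tested, and in bulk libraries fewer cells of a type and less RNA per cell cannot be told apart.

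The ER stress genes give the setting. Hspa5, the ER chaperone BiP, was at 10012 ± 256 CPM in ERS and 952 ± 5 in EVs (SD, n = 3 each), and Xbp1 and Ddit3, transcription factors of the unfolded protein response, were 3.58-fold and 7.49-fold lower in EVs (adjusted p by edgeR = 1.72e-29, 4.83e-20 and 1.01e-24). To show what stands upstream of the matrix genes, promoter windows were read from RefSeq (build GRCm38.p6, 250 bases before to 50 after each start), and 50 of the 70 genes had a window. The ER stress response element (CCAAT and CCACG with any 9 bases between them) and an unfolded protein response element, TGACGTGG, were searched on both strands. Neither was found in any of the 56 windows of these 50 genes. The first stands in 0.119% and the second in 0.676% of all 32851 windows, and a window without a match says only that these letters are not in these 300 bases. Of 24 collagen folding and procollagen export genes with a window, 0 held the first and 2, Sec24d and Sec23a, held the second. For comparison, Hspa5 and the procollagen export genes Sec24d and Sec23a hold one of them in the stretches shown 5′ to 3′ on the gene's strand with the element's fixed letters in capitals (chr2:34772020-34772048 plus strand, chr3:123267465-123267482 plus strand and chr12:59011999-59012016 minus strand).
Hspa5: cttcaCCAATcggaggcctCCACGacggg
Sec24d: gcgccTGACGTGGcacta
Sec23a: cccttTGACGTGGcagag

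The next sequences are the bases just before the starts of 4 of the genes described below, cut where either annotation begins the gene. Serpinh1 is the collagen chaperone gene that fell, Lamb1 the laminin gene that fell with the smallest p, and Col4a5 and Col4a6 are neighbours read in opposite directions, with gene starts 1309 bases apart, that both rose. Capitals mark CCACG or CCAAT, the outer letters of the ER stress response element, on either strand. They are chr7:99353240-99353489 (minus strand), chr12:31265043-31265233 (plus), chrX:141475169-141475384 (plus) and chrX:141474077-141474326 (minus).
Serpinh1: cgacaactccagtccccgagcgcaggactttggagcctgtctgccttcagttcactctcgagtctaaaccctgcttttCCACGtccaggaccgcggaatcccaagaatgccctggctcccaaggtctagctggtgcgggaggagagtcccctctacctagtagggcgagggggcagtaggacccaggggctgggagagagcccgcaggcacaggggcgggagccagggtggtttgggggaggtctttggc
Lamb1: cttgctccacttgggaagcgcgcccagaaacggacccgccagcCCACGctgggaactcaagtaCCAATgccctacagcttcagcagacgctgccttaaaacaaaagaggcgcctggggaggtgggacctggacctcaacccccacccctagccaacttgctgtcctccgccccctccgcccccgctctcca
Col4a5: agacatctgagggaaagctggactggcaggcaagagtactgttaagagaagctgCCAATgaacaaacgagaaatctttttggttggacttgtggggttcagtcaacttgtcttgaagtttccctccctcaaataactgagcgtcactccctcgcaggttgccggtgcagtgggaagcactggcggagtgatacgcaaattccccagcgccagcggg
Col4a6: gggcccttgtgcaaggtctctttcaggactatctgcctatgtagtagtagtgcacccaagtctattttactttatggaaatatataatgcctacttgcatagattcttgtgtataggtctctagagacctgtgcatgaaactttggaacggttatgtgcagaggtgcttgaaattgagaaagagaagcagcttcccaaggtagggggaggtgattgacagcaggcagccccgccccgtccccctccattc
CCACG stood in 39.3% of the 56 windows (22 genes) and in 32.8% of all windows, and CCAAT in 28.6% of the 56 (16 genes) and in 37.4% of all windows. A short motif of this kind is a match of letters and not a shown binding site.

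Of the 50 tested genes, 12 rose in EVs (Fbln2, Col3a1, Col4a5, Col4a6, Col6a2, Col6a3, Col6a4, Col9a2, Col15a1, Hspg2, Plod2 and Loxl2), 14 fell and 24 did not pass the test. The 26 called are 52.0%, near the 47.4% of all tested genes that were called, 22.6% higher and 24.7% lower, so that the number called is not particular to these genes. Their median log2 fold change was -0.07, beside 0.01 for all tested genes. For 29 of the 50 (58.0%) ERS and EVs values lay apart, beside 54.5% of all tested genes. A change of at least 2-fold was called for 3 of the 50, Fbln2, Col12a1 and Col26a1, a share close to the 5.97% of all tested genes. Most of the 70 genes are long, with a median exon length of 7017 bases over all 70, tested or not, beside 3514 for all tested genes. Among the 3975 tested genes of at least 6000 bases, the median log2 fold change was -0.07 and 61.2% were called. Of these long genes 930 were higher and 1504 lower, so that their calls leaned towards lower. Among the 39 such matrix genes the median was -0.09 and 56.4% were called, 9 higher and 13 lower.

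The direction of the calls varied by class. Of the tested genes 7 of 8 laminins fell, 2 of 5 collagen IV and 3 of 4 collagen VI genes rose, and the most abundant fibrillar chain gene did not pass. The called share of collagen IV lies under the 47.4% of all tested genes. The classes are small, and whether their calls differ from those of all tested genes or of long genes was not tested. All 70 genes together took 0.784% ± 0.031 of all counts in ERS and 0.769% ± 0.009 in EVs (SD, n = 3 each), a difference smaller than the spread between the ERS libraries. Within that share, laminin genes went from 0.232% ± 0.010 of counts in ERS to 0.175% ± 0.002 in EVs. The 43 collagen chain genes summed to 0.212% ± 0.007 and 0.252% ± 0.001 of counts, a difference mostly of Col4a5 and Col4a6, since the other 41 took 0.0733% ± 0.0029 and 0.0775% ± 0.0013. The 10 enzyme and chaperone genes took 0.156% ± 0.003 in ERS and 0.131% ± 0.002 in EVs. That lower sum is due to Serpinh1, and the other 9 took 0.0591% ± 0.0007 in ERS and 0.0649% ± 0.0013 in EVs. These sums carry no test.

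**Figure D1:**
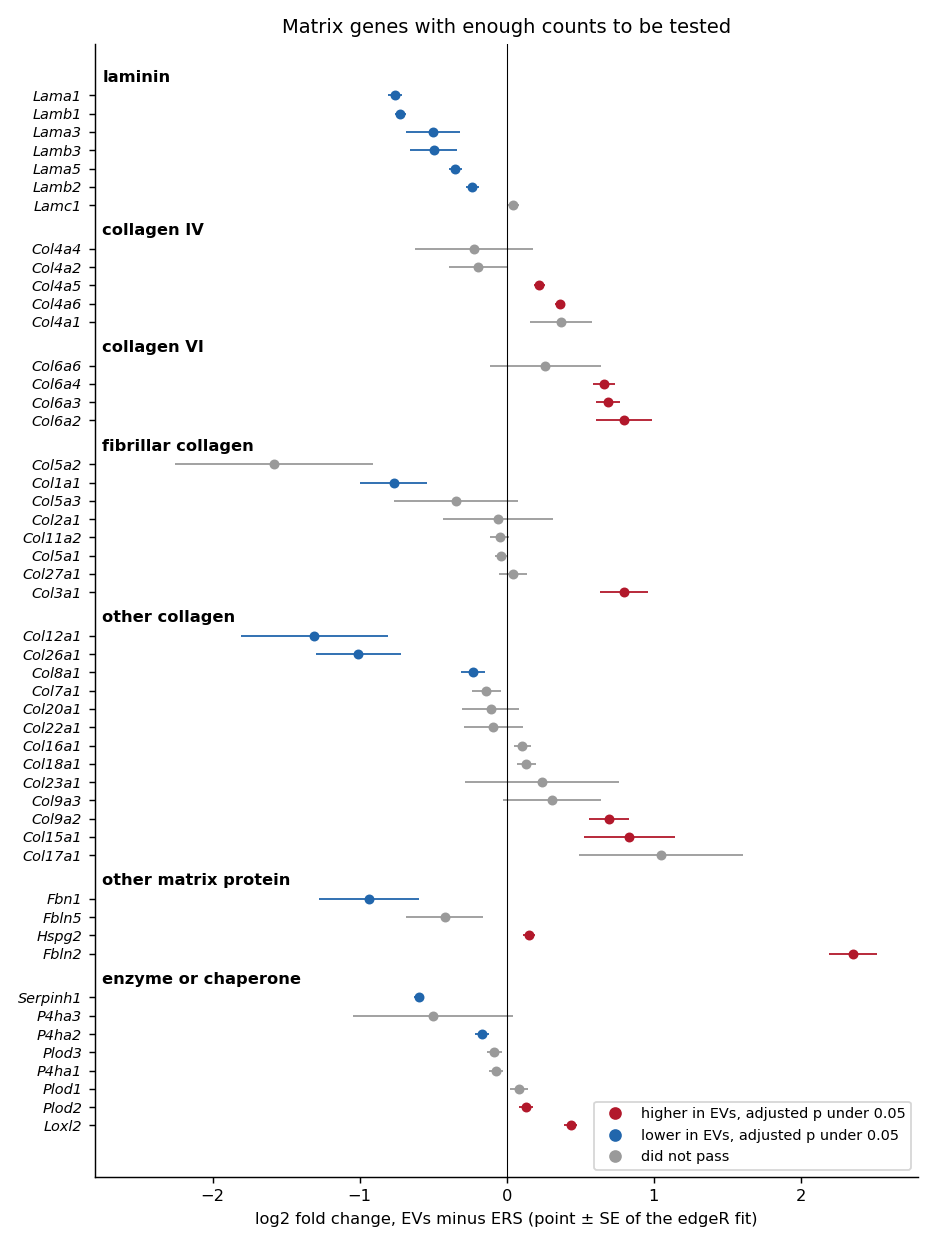
The log2 fold change between EVs and ERS (horizontal axis, point ± SE of the edgeR fit) for 49 of the 50 tested matrix genes, grouped by class and coloured by call. Of the 7 laminin genes drawn, all but Lamc1 lie left of 0 as called and Lamc1 sits near 0, while the called collagen IV and collagen VI genes lie to the right and Fbln2 lies farthest right at 2.36.

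Laminin genes were lower in EVs in 7 of 8 tested cases, and none rose, and their median log2 fold change was -0.50. Of all tested genes 24.7% were lower, and of the 3975 with at least 6000 bases of exon 1504 were lower. Lamb1 (chromosome 12, 31265234 to 31329644, coordinates on GRCm38), the beta chain of the classical laminin, was at 744, 724 and 711 CPM in the ERS libraries and at 437, 439 and 445 CPM in the EVs libraries. The groups lay far apart, and the gene was 1.65-fold lower, a log2 fold change of -0.72 ± 0.04 (SE, adjusted p by edgeR = 1.64e-14). Lama1 (chromosome 17, 67697259 to 67822647), the alpha chain found with Lamb1 in embryonic basement membranes, was at 295, 269 and 289 CPM in ERS and at 171, 175 and 157 CPM in EVs. All 3 EVs values lay below all ERS values, with a log2 fold change of -0.76 ± 0.05 (SE, adjusted p by edgeR = 1.11e-12). Lama5 (chromosome 2, 180176373 to 180225859), the main alpha chain of adult epithelial basement membranes, was at 925, 789 and 857 CPM in ERS and at 666, 685 and 669 in EVs. The ERS libraries spread more than the EVs libraries for this gene without overlap, and it was 1.27-fold lower in EVs (log2 fold change -0.35 ± 0.04, SE, adjusted p by edgeR = 3.03e-07). Lamb2, the beta chain that replaces Lamb1 at many mature basement membranes, was at 239, 226 and 217 CPM in ERS and at 193, 192 and 194 CPM in EVs. It fell by 0.23 ± 0.04 on the log2 scale (SE, adjusted p by edgeR = 6.57e-05), the smallest called fall among the laminins.

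The gamma chain shared by most laminins stood apart from its partners. Lamc1 (chromosome 1, 153218922 to 153332786) was at 237, 228 and 240 CPM in ERS and at 240, 245 and 241 CPM in EVs. The EVs values lay just above the ERS values, and the log2 fold change of 0.04 ± 0.04 (SE) did not pass (adjusted p by edgeR = 0.385). The ratio of Lamb1 and Lamb2 together to Lamc1, each in CPM per kb of exon, was 3.99, 3.99 and 3.70 in the ERS libraries and 2.61, 2.56 and 2.64 in the EVs libraries. For Lama1 and Lama5 together to Lamc1 the ratio was 3.91, 3.52 and 3.63 in ERS and 2.62, 2.64 and 2.57 in EVs. Alpha and beta chain transcripts were thus both in excess of the gamma chain per length in both groups, by less in EVs, and they kept close to each other. Within the alpha chains, Lama5 exceeded Lama1 2.56 ± 0.09-fold per kb in ERS and 3.41 ± 0.18-fold in EVs (SD, n = 3 each). Ratios are given as values with no test.

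**Figure D2:**
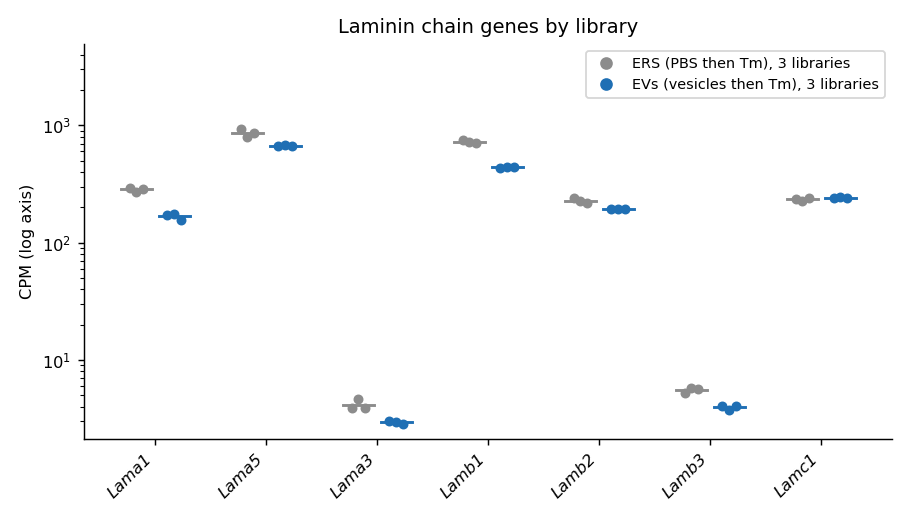
Levels of 7 tested laminin chain genes in CPM (log axis), with 1 point per library, the group mean as a bar, ERS in grey and EVs in blue. Every gene but Lamc1 has its 3 blue points below its 3 grey points, and Lamc1 stays near 240 CPM in both groups.

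Other laminin chains, of epithelial anchoring to the basement membrane, were scarce and lower in EVs. Lamb3 averaged 5.59 ± 0.27 CPM in ERS and 3.96 ± 0.20 in EVs (SD, n = 3 each, adjusted p by edgeR = 0.0111). Lama3 averaged 4.17 ± 0.46 and 2.95 ± 0.08 CPM (adjusted p by edgeR = 0.0289), a call that was lost without ERS replicate 2 (adjusted p = 0.113) and without any 1 of the EVs replicates (0.0513, 0.0541 and 0.0719), with the same direction throughout. The other laminin genes, Lama2, Lamc3 and Lama4, had 15, 14 and 0 counts over the 6 libraries and were not tested.

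Basement membrane chains led the collagens. Per length, the highest collagen transcripts were Col4a5 at 126 and Col4a6 at 90.3 CPM per kb, means over all 6 libraries, chains that assemble together in basement membranes of smooth muscle and some epithelia and whose genes form a pair on the X chromosome. The chains of the ubiquitous collagen IV network, Col4a1 and Col4a2, were at 0.449 and 0.485 CPM per kb. Col4a5 (141475385 to 141689234) was at 777, 753 and 806 CPM in ERS and at 912, 909 and 904 CPM in EVs. Col4a6 (141165403 to 141474076) was at 634, 614 and 642 CPM in ERS and at 823, 806 and 800 CPM in EVs. Both had all EVs values above all ERS values, and they rose by 0.22 ± 0.03 and 0.36 ± 0.03 on the log2 scale (SE, adjusted p by edgeR = 9.34e-06 and 4.61e-09). The ratio of Col4a6 to Col4a5 per kb was 0.688, 0.688 and 0.671 in ERS and 0.760, 0.747 and 0.745 in EVs, so the rises were not equal. Together the pair made 67.9% ± 0.7 of the summed level of tested collagen chains per kb in ERS and 71.4% ± 0.4 in EVs.

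The other collagen IV genes had few counts and were not called. Col4a1 averaged 2.92 ± 0.79 CPM in ERS and 3.78 ± 0.39 in EVs (SD, n = 3 each, adjusted p by edgeR = 0.155). Its ERS replicate 3 lay among the EVs values, and without that library the gene would be called higher (log2 fold change 0.61, adjusted p = 0.0278). Col4a2, which shares a promoter region with Col4a1 and 22 bases of gene body read in the opposite direction, averaged 3.42 ± 0.38 and 3.003 ± 0.404 CPM (adjusted p = 0.456), and Col4a4 0.772 ± 0.153 and 0.664 ± 0.118 CPM. Col4a3 had 11 counts in all and was not tested.

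Collagen VI genes, whose chains form beaded filaments near the cell surface, were higher in 3 of 4 tested cases, beside 22.6% of all tested genes. Of the 5 considered 4 were tested and none fell, with a median log2 fold change of 0.68. Col6a3, a large chain of the filament, was at 18.7, 22.4 and 21.2 CPM in ERS and at 32.2, 35.6 and 32.9 CPM in EVs. Col6a4, a related chain of mouse that stands at about the same level, was at 19.7, 20.9 and 22.8 CPM in ERS and at 33.5, 33.0 and 34.0 in EVs. Neither gene overlapped between the groups, and they rose 1.61-fold and 1.58-fold (log2 fold changes 0.69 ± 0.08 and 0.66 ± 0.08, SE, adjusted p by edgeR = 1.19e-07 and 8.92e-08). Col6a2 rose 1.74-fold from a low level, at 2.61 ± 0.41 CPM in ERS and 4.54 ± 0.09 in EVs (adjusted p = 0.00111). Col6a6 did not pass, at 0.753 ± 0.093 and 0.903 ± 0.217 CPM (adjusted p = 0.601). Col6a5 was not tested, with counts of 0, 4 and 4 in ERS and 11, 7 and 18 in EVs.

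Fibrillar collagen genes, which encode the rope-like fibres of connective tissue, were mostly scarce, and only Col3a1 rose and only Col1a1 fell among 8 tested. Col5a1 (chromosome 2, 27886425 to 28039514), a chain that starts and limits fibril growth, stood out by level. It was at 480, 439 and 463 CPM in ERS and at 439, 461 and 446 CPM in EVs, values that overlapped. Its log2 fold change was -0.04 ± 0.04 (SE, adjusted p by edgeR = 0.430). Its usual partner Col5a2 was nearly absent, at 0.427 ± 0.089 CPM in ERS and 0.137 ± 0.120 in EVs (adjusted p = 0.0566), as were the type I chain Col1a2, with 23 counts in all, and fibronectin (Fn1), with 3. Col11a2, a cartilage chain related to Col5a1, was at 48.0, 41.9 and 44.2 CPM in ERS and at 42.0, 44.3 and 43.4 CPM in EVs. Col27a1, a minor fibrillar chain, was at 15.3, 14.4 and 14.8 CPM in ERS and at 14.3, 16.97 and 14.7 CPM in EVs. Both overlapped between groups, with log2 fold changes of -0.05 ± 0.06 and 0.04 ± 0.10 (SE, adjusted p = 0.572 and 0.747). Col3a1, the chain of soft-tissue fibrils, was 1.74-fold higher at 6.25 ± 0.81 CPM in EVs against 3.598 ± 0.412 in ERS (adjusted p = 2.86e-04). Col1a1, the main fibril chain of bone and skin, was 1.70-fold lower at 1.91 ± 0.42 against 3.27 ± 0.36 CPM (adjusted p = 0.00710). Col2a1 and Col5a3 lay under 1 CPM on average in both groups and did not pass.

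Of the 13 tested genes for the remaining collagens, Col9a2 and Col15a1 rose, Col8a1, Col12a1 and Col26a1 fell and 8 did not pass. Col16a1, a fibril-associated collagen, was at 55.5, 51.6 and 56.5 CPM in ERS and at 58.1, 61.1 and 56.8 CPM in EVs, narrowly apart. Col18a1, a basement membrane collagen and the source of endostatin, was at 50.9, 45.7 and 43.4 CPM in ERS and at 51.7, 49.7 and 52.2 CPM in EVs, which overlapped. Neither passed, with log2 fold changes of 0.10 ± 0.06 and 0.13 ± 0.06 (SE, adjusted p by edgeR = 0.142 and 0.0916), though Col18a1 would be called without ERS replicate 1 (0.20, adjusted p = 0.0156). Col7a1, the collagen of anchoring fibrils, was at 14.6, 16.2 and 16.0 CPM in ERS and at 14.004, 15.449 and 13.039 CPM in EVs. It overlapped between groups and did not pass (log2 fold change -0.14 ± 0.10, adjusted p = 0.262). Col8a1, a short-chain collagen of vessel and corneal sheets, was at 24.4, 26.1 and 24.9 CPM in ERS and at 23.1, 20.8 and 20.4 CPM in EVs. It fell by 0.23 ± 0.08 on the log2 scale (SE, adjusted p = 0.0204), a call lost without ERS replicate 2, EVs replicate 2 or EVs replicate 3 (adjusted p = 0.0665, 0.0677 and 0.0964).

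The other called collagens were all scarce. Col9a2, a fibril-associated cartilage chain, rose 1.62-fold, at 5.48 ± 0.50 CPM in ERS and 8.88 ± 0.64 in EVs (SD, n = 3 each, adjusted p by edgeR = 1.19e-04). Its partner Col9a3 averaged 1.20 ± 0.35 and 1.48 ± 0.51 CPM and did not pass (adjusted p = 0.479), and Col9a1 had 0 counts. Col26a1, a little-studied collagen, was at 2.58, 1.56 and 2.27 CPM in ERS and at 0.9957, 1.0001 and 1.1797 CPM in EVs. The groups did not overlap, and it was 2.01-fold lower (log2 fold change -1.01 ± 0.29, SE, adjusted p by edgeR = 0.00561). Col12a1, a collagen on the surface of fibrils, was at 0.723, 0.497 and 0.809 CPM in ERS and at 0.161, 0.345 and 0.310 CPM in EVs. These correspond to 15 to 26 counts in an ERS library and 5 to 10 in an EVs library, and the fall (log2 fold change -1.31 ± 0.50, SE, adjusted p = 0.0341) was lost without ERS replicates 1 or 3 (adjusted p = 0.0950 and 0.122) and without each EVs replicate (0.140, 0.0501 and 0.0642). Col15a1, of the basement membrane zone, averaged 1.03 ± 0.32 and 1.84 ± 0.12 CPM (adjusted p = 0.0279), a rise lost without ERS replicate 1, EVs replicate 2 or EVs replicate 3 (0.133, 0.0806 and 0.0596). The transmembrane collagens Col17a1 and Col23a1 averaged under 1 CPM in both groups and did not pass, although Col17a1 would be called higher without EVs replicate 2 (log2 fold change 1.44, adjusted p = 0.0446). Col20a1 averaged 3.85 and 3.57 CPM and Col22a1 3.75 and 3.53 CPM in ERS and EVs, without passing. Of the 20 untested genes, those not yet named were Col8a2, Col10a1, Col11a1, Col13a1, Col14a1, Col19a1, Col24a1, Col25a1 and Col28a1 among the collagens, with at most 60 counts in all, and Fbln1, Lox and Loxl1 with 0, 0 and 15.

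**Figure D3:**
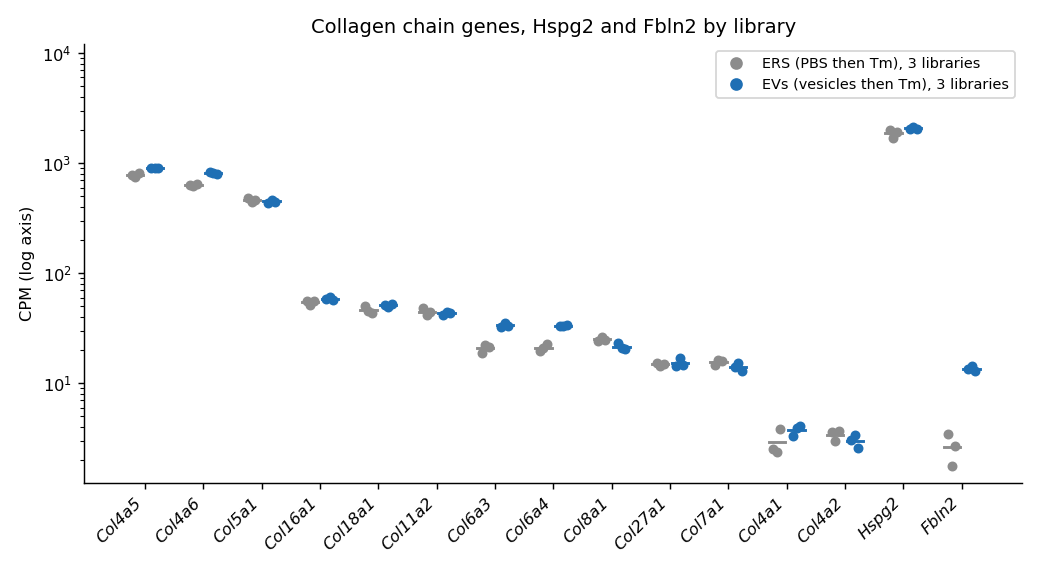
Levels of the 11 collagen chain genes with a mean of at least 10 CPM, of Col4a1 and Col4a2, and of Hspg2 and Fbln2, in CPM (log axis), with 1 point per library and the group mean as a bar, ERS in grey and EVs in blue. Col4a5, Col4a6, Col6a3, Col6a4, Fbln2 and, narrowly, Col16a1 and Hspg2 have all blue points above all grey points. Fbln2 shows the widest gap, from 2.64 to 13.6 CPM on average.

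Among the other matrix proteins, Fbln2 rose most and Hspg2 was most abundant. Fbln2 (chromosome 6, 91212455 to 91272540), a secreted glycoprotein that binds laminins, perlecan and other matrix proteins, was at 3.46, 1.79 and 2.68 CPM in ERS and at 13.4, 14.3 and 13.0 CPM in EVs. Every EVs library was several times above every ERS library, a log2 fold change of 2.36 ± 0.16 (SE, adjusted p by edgeR = 1.15e-11). Hspg2 (chromosome 4, 137468769 to 137570630) encodes perlecan, the large heparan sulfate proteoglycan of basement membranes. It was at 1991, 1692 and 1905 CPM in ERS and at 2050, 2120 and 2033 CPM in EVs, 137 CPM per kb over all libraries. The groups lay just apart, ERS replicate 2 was the lowest, and the 1.11-fold rise (log2 fold change 0.15 ± 0.04, SE, adjusted p = 0.00450) was lost without that library (0.08, adjusted p = 0.0702). Fbn1, the fibrillin of microfibrils, averaged 1.53 ± 0.19 CPM in ERS and 0.799 ± 0.273 in EVs (adjusted p = 0.0255). That call was lost without ERS replicate 1, EVs replicate 1 or EVs replicate 3 (adjusted p = 0.0867, 0.103 and 0.0738). Fbln5, an elastic fibre protein, averaged 2.86 ± 0.84 and 2.12 ± 0.69 CPM and did not pass (adjusted p = 0.201), though it would be called lower without ERS replicate 3 (adjusted p = 0.0415).

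The collagen chaperone fell while most hydroxylases moved little. Serpinh1 (chromosome 7, 99345376 to 99353239), which encodes the collagen-specific chaperone HSP47, had the highest level per length of all genes considered here, at 334 CPM per kb over all libraries. It was at 1002, 994 and 946 CPM in ERS and at 628, 664 and 655 CPM in EVs. All EVs values lay below all ERS values, and it was 1.51-fold lower (log2 fold change -0.60 ± 0.04, SE, adjusted p by edgeR = 9.20e-13). The summed level of the tested collagen chains went the other way. It was 287 ± 8 CPM per kb in ERS and 332 ± 2 in EVs, so that Serpinh1 stood to them as 1.41, 1.47 and 1.32 to 1 in the ERS libraries and as 0.772, 0.816 and 0.814 to 1 in the EVs libraries.

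Prolyl 4-hydroxylase adds the hydroxyl groups that keep the collagen helix stable at body temperature. Its catalytic subunit P4ha1 was at 107, 115 and 112 CPM in ERS and at 108, 109 and 102 CPM in EVs, and P4ha2 at 105, 103 and 98.9 CPM in ERS and at 91.4, 94.0 and 87.8 CPM in EVs. P4ha1 overlapped between groups and did not pass (log2 fold change -0.07 ± 0.05, SE, adjusted p by edgeR = 0.234), and P4ha2 fell by 0.17 ± 0.05 on the log2 scale (adjusted p = 0.00532). The third subunit gene P4ha3 was under 1 CPM on average and did not pass. Their partner P4hb, which is also a general disulfide isomerase, was 2.31-fold lower in EVs, at 1117 ± 31 CPM in ERS and 483 ± 4 in EVs (SD, n = 3 each, adjusted p = 4.28e-19). Per kb, P4hb exceeded P4ha1 and P4ha2 together 8.97 ± 0.20-fold in ERS and 4.18 ± 0.17-fold in EVs.

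Lysyl hydroxylases prepare collagen for cross-linking and for sugar attachment. Plod1 was at 64.6, 56.8 and 58.5 CPM in ERS and at 61.7, 63.0 and 66.1 CPM in EVs. Plod3, which also transfers the sugars, was at 90.3, 88.6 and 81.2 CPM in ERS and at 82.0, 82.2 and 81.0 CPM in EVs. Both overlapped between groups and did not pass (log2 fold changes 0.08 ± 0.06 and -0.09 ± 0.05, SE, adjusted p by edgeR = 0.254 and 0.180), though Plod3 would be called lower without ERS replicate 3 (adjusted p = 0.0285). Plod3 shares 529 exon bases with Znhit1 on the other strand, and the use of strand in the counting is not given, so reads there cannot be told apart. Plod2, the enzyme that hydroxylates collagen ends for cross-links, was at 99.1, 103 and 97.4 CPM in ERS and at 106, 116 and 107 CPM in EVs. It rose by 0.13 ± 0.05 on the log2 scale (SE, adjusted p = 0.0264), a call lost without ERS replicate 1, ERS replicate 3 or EVs replicate 2 (adjusted p = 0.0595, 0.0777 and 0.227), and it shares 346 exon bases with the opposite-strand gene Gm38391.

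Of the 3 lysyl oxidase genes among the 70, Lox had no counts, Loxl1 had 15, and Loxl2 was well measured. Loxl2 (chromosome 14, 69609068 to 69695834), a lysyl oxidase that acts on collagen IV, was at 134, 140 and 142 CPM in ERS and at 196, 186 and 181 CPM in EVs. All EVs values lay above all ERS values, and the gene was 1.35-fold higher (log2 fold change 0.44 ± 0.04, SE, adjusted p by edgeR = 1.27e-08). Of the 5 tested collagen IV genes 2 also rose, Col4a5 and Col4a6, as did 22.6% of all tested genes, whereas Serpinh1 fell. A link between these genes was not tested.

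**Figure D4:**
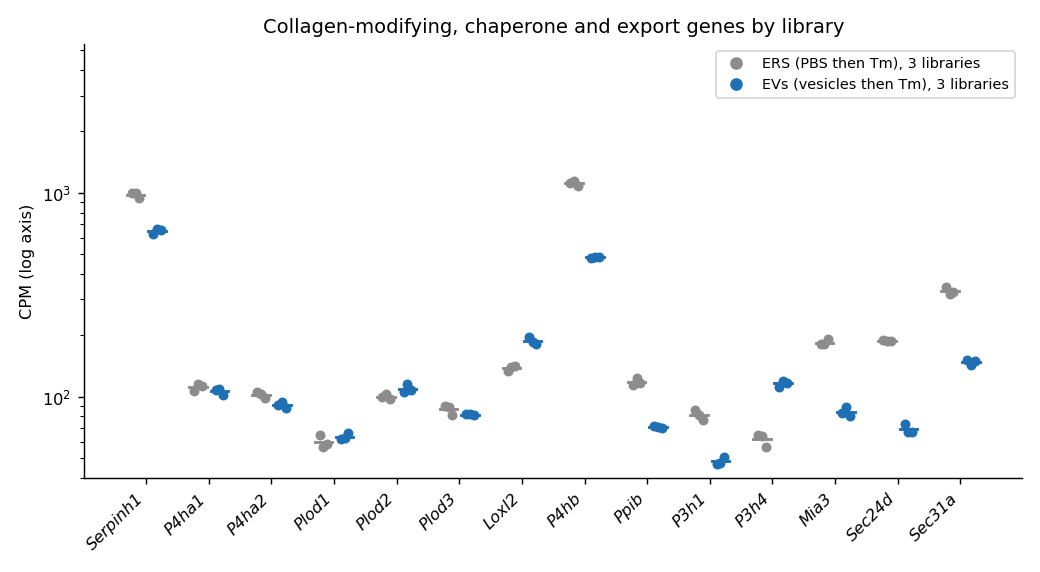
Levels of 7 collagen-modifying genes considered here (Serpinh1 to Loxl2) and of 7 further genes of folding and export (P4hb to Sec31a) in CPM (log axis), with 1 point per library and the group mean as a bar, ERS in grey and EVs in blue. Serpinh1, P4hb, Ppib, P3h1, Mia3, Sec24d and Sec31a are lower in EVs with no overlap, and Loxl2 and P3h4 are higher with no overlap. The P4ha and Plod genes differ little, though P4ha2 (lower in EVs) and Plod2 (higher) do not overlap either.

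Genes of procollagen folding in the ER, with P4hb counted again among them, and of its export were called lower more often than higher. Of the tested genes, 75.0% of the folding list and 81.2% of the export list were called, beside 47.4% of all tested genes and 64.1% of those with a mean of at least 10 CPM. Of 12 tested genes for folding and modification, 6 fell, 3 rose and 3 did not pass, and the median log2 fold change was -0.30. Those that fell included Fkbp14, a prolyl isomerase, which was 2.40-fold lower (adjusted p by edgeR = 2.16e-13). In the prolyl 3-hydroxylase complex, the enzyme P3h1 was 1.69-fold lower and the isomerase Ppib, cyclophilin B, 1.66-fold lower, whereas the scaffold Crtap was 1.18-fold higher. P3h4, a partner of lysyl hydroxylase, was 1.88-fold higher, at 61.9 ± 4.5 CPM in ERS and 116 ± 4 in EVs (SD, n = 3 each, adjusted p = 6.64e-13). Crtap and Colgalt1, a collagen galactosyltransferase, were the other genes that rose. P3h1, Ppib, Crtap and Colgalt1 were named after their values were seen.

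Of 16 tested genes for procollagen export, 11 fell, 2 rose and 3 did not pass, with a median of -0.58. Mia3, the receptor TANGO1 that loads procollagen into carriers, was 2.19-fold lower at 184 ± 6 CPM in ERS and 84.4 ± 4.4 in EVs (adjusted p by edgeR = 8.96e-16). The COPII coat genes Sec24d and Sec31a were 2.72-fold and 2.22-fold lower (adjusted p = 3.98e-18 and 5.59e-17). Pdcd6 and Pef1, calcium-binding adaptors that help form large coats, were 1.21-fold and 1.20-fold higher. Pef1 values overlapped between groups (adjusted p by edgeR = 0.0147). Only 1 export gene was called higher without ERS replicate 3, and likewise without EVs replicate 3. The coat also carries other cargo, so these genes are not specific to collagen.

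Of 6 tested genes for processing and cross-linking of secreted procollagen, Bmp1, Loxl3 and Adamts14 rose, Adamts2 fell and 2 did not pass (median log2 fold change 0.12). Bmp1, the procollagen C-proteinase, was 1.24-fold higher, while Adamts2, an N-proteinase, was 2.71-fold lower from 4.11 ± 0.72 CPM. Of 21 tested genes for other matrix proteins 11 rose, Ltbp2 and Matn2 fell and 8 did not pass (median 0.30). The called shares were 66.7% of the processing genes and 61.9% of the other matrix genes. Both are near the 64.1% of all tested genes with a mean of at least 10 CPM, beside 47.4% of all tested genes. Tnc, the adhesion-modulating tenascin C, was 1.83-fold higher at 380 ± 4 CPM in EVs, Ecm1 1.87-fold and Ltbp3, a binding protein of latent TGF-beta, 1.39-fold (adjusted p by edgeR = 4.58e-15, 1.17e-09 and 1.78e-09).

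Genes for matrix proteases and their inhibitors had 9 of 15 higher, Mmp19, Mmp23 and Plau lower and 3 not passing (median log2 fold change 0.28), which is 80.0% called beside the same 47.4% and 64.1%. Timp2, a metalloproteinase inhibitor, was 1.44-fold higher, Mmp9, a gelatinase, 1.58-fold higher and Mmp19 1.91-fold lower (adjusted p by edgeR = 2.22e-10, 3.06e-09 and 1.41e-08). Of 9 tested receptor genes 5 rose, Ddr2 and Mrc2 fell and 2 did not pass (median 0.34, 77.8% called). Dag1, the laminin receptor dystroglycan, was 1.71-fold higher at 499 ± 12 CPM in EVs, and Sdc3, a heparan sulfate syndecan, 1.64-fold higher. Ddr2, a receptor kinase for fibrillar collagen, was 1.82-fold lower at 421 ± 7 CPM in EVs against 764 ± 35 in ERS (SD, n = 3 each, adjusted p by edgeR = 2.60e-15).

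**Figure D5:**
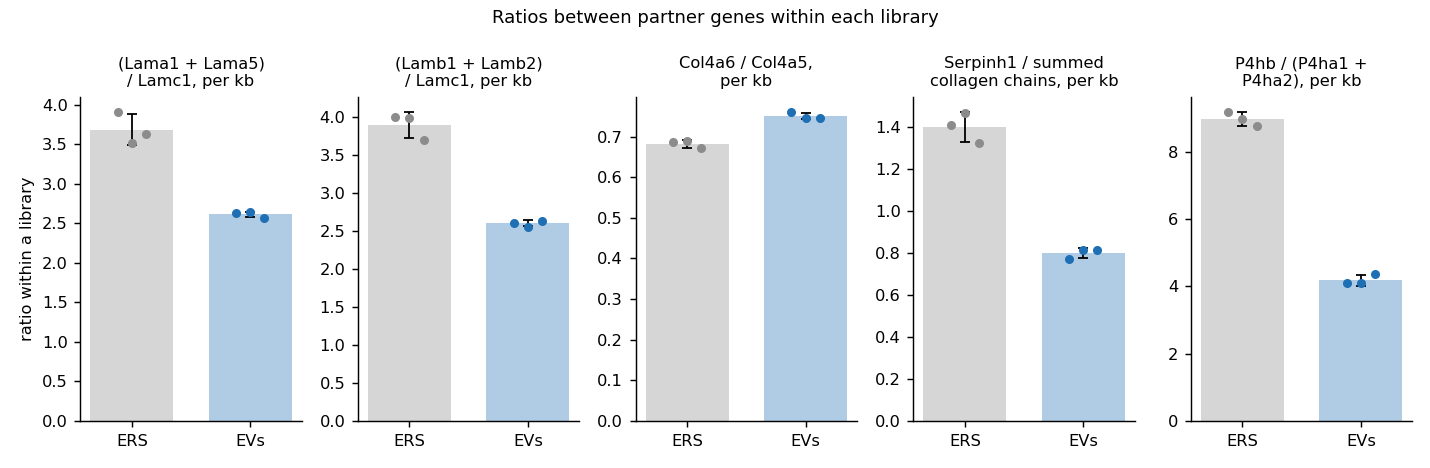
Ratios between partner genes within each library, computed from CPM per kb of exon, with bars for the group mean, error bars for the SD, and 1 point per library (3 ERS in grey, 3 EVs in blue). The laminin alpha to gamma, laminin beta to gamma, Serpinh1 to collagen and P4hb to P4ha ratios are lower in every EVs library, and the Col4a6 to Col4a5 ratio is higher in every EVs library.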

How the data were processed

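Bulk RNA-seq counts of 6 libraries, 3 per group, were analysed. Alignment was with HISAT2 2.2.1 per the labels' protocols, and featureCounts 2.0.6 is named in the submitters' processing notes. The authors deposited raw counts per gene beside other columns with the gene's position and its length in bases. How strand and multi-mapping reads were handled is not given in the sources used here. The notes name mm39, but start and end equal those of GENCODE M21 (GRCm38) for 98.3% of shared gene IDs and for 69 of the 70 genes, so coordinates are read as GRCm38. Libraries of one group differed beyond sampling noise (mean chi-square per gene 3.71 to 7.78).

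Tests used edgeR 4.0.16 in R 4.3.3 (TMM factors, filterByExpr, quasi-likelihood F test, two-sided, Benjamini-Hochberg over 16844 genes). The SE is the fold change divided by the root of F. CPM use TMM-scaled library sizes, but marker sums, shares and limits use plain ones. CPM per kb divides by the deposited gene length.

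The genes and lists were chosen with earlier results of these data known. Values in every library are given for tested genes with a mean of at least 10 CPM, or called with an absolute log2 fold change of at least 1. From each other list up to 3 genes by smallest p were named, plus P4hb, Mia3, Hspa5, Xbp1 and Ddit3, and others after their values were seen. Alternatives were no filter, a stricter filter, scaling by DESeq2 1.42.0 size factors or by library size alone, the DESeq2 and limma-voom (limma 3.58.1) tests, a replicate block, and leaving out each library. Protein sequence features were not analysed here. The values of 1 tested gene are not reported here, and it enters only counts, sums and medians.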

Additional observations from a re-analysis of the deposited data

How the results depend on the processing

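Across the 13 alternatives, no called gene among the 50 changed direction. Of the 26 called genes 19 were called in the same direction in every alternative that tested them. The exceptions were Lama3, Col8a1, Col12a1, Col15a1, Fbn1, Hspg2 and Plod2, each lost under the settings named here or beside its value. The DESeq2 test also did not call Lama3, Col12a1, Col15a1 and Fbn1, fits without a filter did not call Col12a1 and Plod2, and scaling by library size alone did not call Col8a1 but called Col16a1 and Col18a1 higher. limma-voom also called Col5a2 lower (adjusted p = 0.0218). Laminin genes were called lower in 6 to 7 cases and higher in 0 under every alternative, and collagen VI genes higher in 3 to 4 and lower in 0. Leaving out 1 library gave 11 to 13 genes higher and 10 to 15 lower. The replicate block gave 12 genes higher and 14 lower, and 3679 higher and 4058 lower among all genes, against 3808 and 4168 without it. Same-numbered libraries did not deviate together (r = -0.04, 0.02 and -0.01 over tested genes), and differently numbered ones gave r of -0.03 to 0.04. Pairing was thus not detected. A correlation over all tested genes cannot show a batch that acts on few of them, and the labels do not say what the numbers mark. Low counts limit the scarce collagens, where 19 tested chains averaged under 10 CPM. The other lists also varied over the alternatives. Folding genes were lower in 5 to 6 cases and higher in 3, and export genes lower in 11 and higher in 1 to 2. Other matrix genes were higher in 9 to 13 and lower in 2 to 3, and protease and inhibitor genes higher in 7 to 9 and lower in 2 to 3.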
